A study of Mus musculus with 9 samples.

Results

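The libraries of microglia treated with R848 and IFN-α together were compared with the pooled libraries of both single agents, gene by gene. All 9 libraries of the series entered, 3 per group, and of 24411 gene rows 11002 held enough counts to be tested. Per the labels, primary microglia came from whole brains of 3-day-old ICR mice, as mixed glial cultures from which the microglia were shaken off, and all groups shared a treatment time of 4 h. The R848 group received 1 µM R848 (resiquimod), the IFN-α group 100 U/ml recombinant mouse IFN-α, and the combined group both agents at those concentrations. In the contrast, the combined group had a weight of 1 and each single-agent group a weight of -0.5, so the reference is the mean of both single agents on the log scale. Genes are described by whether all 3 combined libraries lay outside the range of all 6 single-agent libraries. An untreated control group named in the design text was not analysed here, so a level is always given relative to a single agent and never to resting cells. The labels do not say whether the 3 libraries of a group came from separate cultures or litters.

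R848 is a small molecule that activates the endosomal receptor TLR7 in mouse cells. TLR7 signals through the adaptor MyD88 to NF-κB, AP-1 and interferon regulatory factors, which drive inflammatory cytokine genes. IFN-α is a type I interferon whose receptor, formed by the Ifnar1 and Ifnar2 chains, activates the kinases JAK1 and TYK2 and, through them, transcription from interferon-stimulated response elements. In microglia, the resident macrophages of the brain, both pathways act on overlapping sets of genes of host defence.

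The R848 libraries held 2817772 to 3298567 gene counts, the IFN-α libraries 2505941 to 2852960 and the combined libraries 2795385 to 6005578, with replicate 3 the deepest of all 9. Levels are CPM, counts at an equal library total, after scaling with TMM, a method that sets most genes equal on average, and the scaling factors ran from 0.831 to 0.892 in the combined group against 0.954 to 1.17 in the others. Microglial markers (10 genes, among them Aif1, Itgam and Csf1r) summed to 3348 to 3753 CPM in the combined libraries, 3207 to 3545 CPM with R848 and 4317 to 4473 CPM with IFN-α. Astrocyte markers (11 genes, among them Gfap and Aqp4) were present too and summed to 2395 to 3443 CPM in the combined libraries, above the 1459 to 1716 CPM with R848 and the 1165 to 1469 CPM with IFN-α. The part of this difference in the results that follow was not tested. In such bulk samples, fewer cells of a type and less RNA per cell cannot be told apart.

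The contrast called 3846 genes, 35% of those tested, of which 2293 were higher (20.8%) and 1553 lower (14.1%) in the combined group (edgeR's quasi-likelihood test, Benjamini-Hochberg adjusted p under 0.05). A call against the pooled mean does not place a gene outside both single agents, since a gene high with one agent and kept high with both also passes. Of the 2293 higher genes, 1238 (11.3% of all tested) lay above all 6 single-agent libraries and 1055 lay inside their range. Of the 1553 lower genes, 770 (7% of all tested) lay below all 6 and 783 lay inside. Without regard to the call, 1293 genes lay above (11.8%) and 918 below (8.34%), and 125 and 56 further genes outside the range were too low to be tested.

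A second test required the combined group to differ from R848 and from IFN-α in the same direction. It called 806 genes higher than both (7.33%) and 310 lower than both (2.82%), and 786 and 302 of these also lay outside the range. The same libraries gave the range and this test, so each is no independent check of the other. Of the 786 genes, 197 were at least 2-fold and 39 at least 4-fold over the nearer single agent, meaning the single agent with the level closer to the combined one. Of the 302 genes, 52 were at least 2-fold and 8 at least 4-fold under it. The number lower than both depended on single libraries and on the test. With 1 library left out it ran from 173 (without combined replicate 3) to 374 (without R848 replicate 1), with 198 without combined replicate 2. With DESeq2 on all libraries it was 185. At the edge of the rule, the nearest gene outside on the upper side was Shfm1, with a lowest combined level of 86.375 CPM and a highest single-agent level of 86.372 CPM, and the nearest inside was Kif1c, at 150.209 and 150.226 CPM. On the lower side, Gps1 was outside, with a highest combined level of 63.870 CPM and a lowest single-agent level of 63.885 CPM, and Irak1 was inside, at 56.144 and 56.131 CPM.

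The split between higher and lower depended on the scaling. Higher genes made up 59.6% of the calls with TMM, 43.7% with upper-quartile factors (1921 higher, 2475 lower) and 19.9% with library totals alone (1218 higher, 4918 lower). Against the median contrast of all genes, which was -0.01 with TMM, upper-quartile factors moved that median to -0.12 and library totals alone to -0.37 on the log2 scale, so that every direction given here is relative to the bulk of the genes. Of the 1293 genes above all 6 libraries, 942 stayed above under upper-quartile factors and 423 under library totals alone. All 918 genes below stayed below with both. Both other scalings lowered the combined levels relative to the single agents, so a gene below could hardly leave. The 918 are therefore no sign that the lower set is firmer. Most genes outside the range were so by a narrow step. For genes above, the median ratio of the lowest combined to the highest single-agent level was 1.18. For genes below, the median ratio of the lowest single-agent to the highest combined level was 1.12. The contrast left 4.25% of the genes above and 16.1% of the genes below uncalled. The 30 genes picked by size and named in the next paragraphs kept their range under both other scalings. This was no check in either direction. The 15 above were chosen for steps of at least 8.74-fold, large beside these shifts, and the 15 below could hardly leave.

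**Figure D1:**
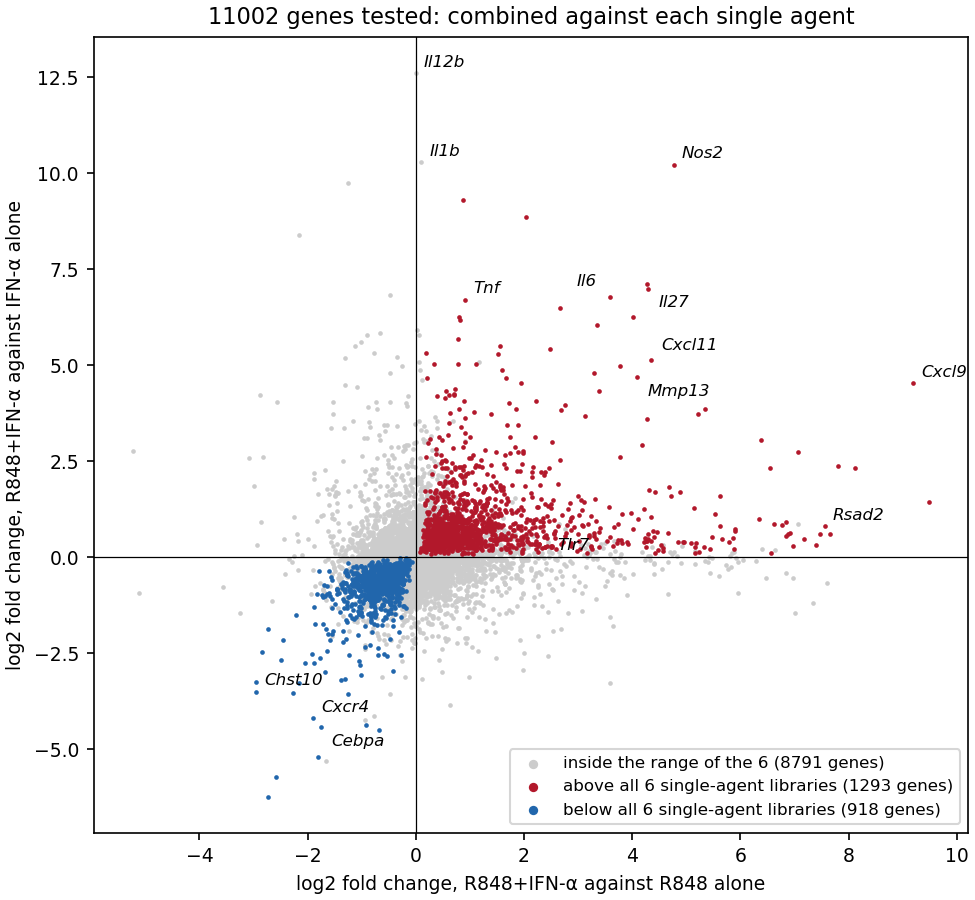
Fitted log2 fold change of the combined group against R848 alone (x axis) and against IFN-α alone (y axis) for the 11002 genes tested, 1 point per gene, coloured by whether the 3 combined libraries lay above (1293), below (918) or inside the range of the 6 single-agent libraries. Both axes share the combined libraries, and the value of a gene with no count in a group, such as Il12b with IFN-α, depends on the prior count of the fit. Genes such as Nos2 and Cxcl9 stand far from both axes, while Il12b and Il1b lie on the line of no difference from R848.

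The genes highest above both single agents included those of an inducible enzyme, chemokines, cytokines, a collagenase and surface receptors. Among genes of at least 5 CPM, without predicted or clone names, the 15 with the largest fold over the nearer single agent were Nos2, Cxcl9, Cxcl11, Il27, Edn1, Mmp13, Mab21l3, Slamf7, Heatr9, Slc28a2, Il6, Il1rn, Tnfsf15, Ccl7 and Slamf1, from 27.2-fold to 8.74-fold. Passing the test against both agents was a condition of this choice. The largest adjusted p among the 15 was 1.58e-06 (edgeR's quasi-likelihood test, Benjamini-Hochberg adjustment), for Heatr9.

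Nos2 (chr11:78920787-78960226, GRCm38), the inducible nitric oxide synthase, was measured at 23.2, 12.3 and 16 CPM under R848, 0, 0.362 and 0.636 CPM under IFN-α and 441, 450.0 and 517 CPM under both agents. It was nearly off with IFN-α, low with R848 and high in all 3 combined libraries, which lay 27.2-fold over R848 alone (adjusted p against both 7.8e-21). With 3 counts over the IFN-α libraries, the ratio of the combined group to IFN-α was 1361, with a 95% counting interval from 466 to 6604. Cxcl9 (chr5:92321331-92328079), a chemokine that attracts activated T cells, had 2.89, 2.53 and 1.48 CPM under R848, 60.8, 64.1 and 52.5 CPM under IFN-α and 1518, 1314 and 1263 CPM under both agents. Here IFN-α was the higher single agent, no library overlapped between groups, and the combined level was 23.1-fold over IFN-α alone (contrast 6.86 ± 0.10 as log2 ± SE, adjusted p against both 2.45e-23). Its relative Cxcl11, which binds the same receptor CXCR3, was at 47.7, 75.9 and 80.3 CPM under R848, 32.5, 38 and 46.4 CPM under IFN-α and 1407, 1365 and 1378 CPM under both agents. Both single agents gave low levels, R848 the higher one on average, and the combined level was 20.4-fold over R848 alone.

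Il27, encoding the p28 subunit of IL-27, a cytokine of the IL-12 family, stood at 23.2, 14.9 and 17.8 CPM under R848, 5.03, 2.17 and 1.59 CPM under IFN-α and 380.2, 336 and 383 CPM under both agents. Edn1 (chr13:42301476-42307990), the precursor of the vasoconstrictor endothelin-1, showed the same order of groups at 9.26, 10.1 and 14.5 CPM under R848, 1.16, 1.45 and 1.91 CPM under IFN-α and 239, 214 and 204 CPM under both agents. Both were higher with R848 than with IFN-α, and their combined libraries were 19.6-fold and 19.3-fold over R848. Mmp13 (chr9:7272514-7283333), a collagenase, was already present with each agent, at 368, 390.4 and 416 CPM under R848, 249, 281 and 247 CPM under IFN-α and 7114, 6267 and 6712 CPM under both agents. Its contrast was 4.40 ± 0.070 and its fold over the nearer agent, R848, was 17.1. Il6 (chr5:30013114-30019975), an inflammatory cytokine, was measured at 106, 131 and 143 CPM under R848, 13.9, 12.3 and 14.9 CPM under IFN-α and 1585, 1368 and 1599 CPM under both agents. The combined libraries lay 12-fold over R848 (contrast 5.18 ± 0.091, adjusted p against both 1.88e-21), and the highest IFN-α library lay below the lowest R848 library.

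Among the rest of the 15, Slamf7, a receptor of the SLAM family on immune cells, was at 18.2, 18.4 and 21.6 CPM under R848, 46.1, 57.9 and 58.2 CPM under IFN-α and 885, 727 and 747 CPM under both agents. It was higher with IFN-α than with R848 and 14.5-fold over IFN-α when both were given, and Slamf1 of the same family was 8.74-fold over the nearer agent. Il1rn, the secreted antagonist of the IL-1 receptor, was at 446, 474 and 509 CPM under R848, 252, 259 and 230.2 CPM under IFN-α and 5472, 4767 and 4709 CPM under both agents, a 10.5-fold step over R848. Tnfsf15, a TNF family ligand, was 10.2-fold, the monocyte chemokine gene Ccl7 9.78-fold and the nucleoside transporter gene Slc28a2 12.2-fold over the nearer agent. Mab21l3 and Heatr9 had low levels, with mean combined values of 11.8 and 8.42 CPM and 1 and 2 counts over the IFN-α libraries, so that their ratios to IFN-α were 101 (95% counting interval 17.8 to 4037) and 37.9 (10.2 to 318).

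**Figure D2:**
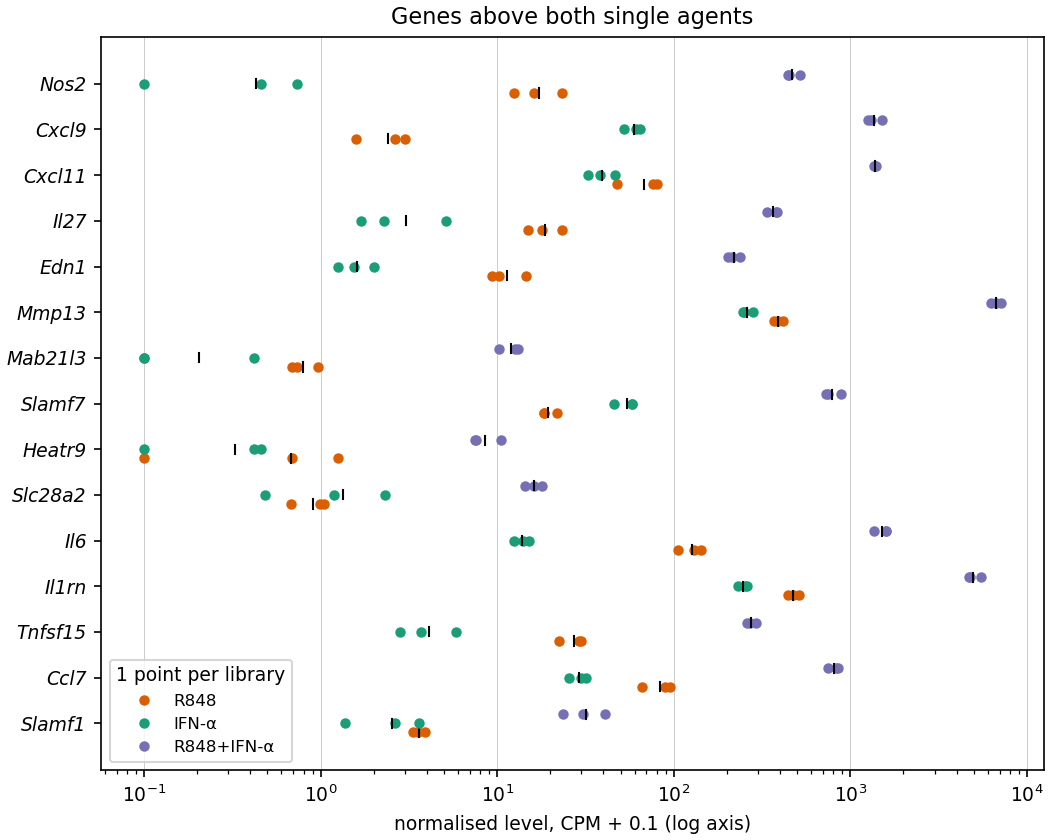
Level of the 15 genes highest above both single agents in every library, as CPM plus 0.1 on a log axis (x axis), 1 row per gene and 1 point per library, with a tick at the mean of each group of 3. In each row the 3 combined points lie to the right of all 6 single-agent points, and R848 and IFN-α change places between rows, with IFN-α the higher agent for Cxcl9 and Slamf7 and R848 for Nos2, Edn1 and Il6.

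The 250 bases before the start of a gene hold part of the sequence that NF-κB, AP-1, STAT and IRF proteins can bind, so the promoters of Il6, Mmp13 and Edn1 are shown as examples of genes far above both agents, and that of Chst10 as the gene of at least 5 CPM furthest below both. They are RefSeq promoters on GRCm38.p6, written 5′ to 3′ on the strand of the gene and ending 1 base before the transcript start that the promoter table uses, which for Chst10 lies inside the gene span given further on. Capitals mark matches to the core of the interferon-stimulated response element (ISRE; GAAA, any 2 bases, GAAA), to the kB motif of NF-κB (GGGA, any 2 bases, TTCC) or to the AP-1 motif TGANTCA, read on both strands.
Il6, chr5:30012864-30013113, + strand: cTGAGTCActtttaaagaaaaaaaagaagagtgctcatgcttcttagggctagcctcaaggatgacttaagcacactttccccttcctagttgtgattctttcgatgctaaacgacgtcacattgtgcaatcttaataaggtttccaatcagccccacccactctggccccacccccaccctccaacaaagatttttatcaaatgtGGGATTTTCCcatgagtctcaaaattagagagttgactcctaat
Mmp13, chr9:7272264-7272513, + strand: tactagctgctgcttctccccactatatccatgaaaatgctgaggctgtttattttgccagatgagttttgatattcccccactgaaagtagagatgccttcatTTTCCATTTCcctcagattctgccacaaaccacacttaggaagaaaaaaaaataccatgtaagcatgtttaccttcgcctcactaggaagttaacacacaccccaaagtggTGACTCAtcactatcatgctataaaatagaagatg
Edn1, chr13:42301226-42301475, + strand: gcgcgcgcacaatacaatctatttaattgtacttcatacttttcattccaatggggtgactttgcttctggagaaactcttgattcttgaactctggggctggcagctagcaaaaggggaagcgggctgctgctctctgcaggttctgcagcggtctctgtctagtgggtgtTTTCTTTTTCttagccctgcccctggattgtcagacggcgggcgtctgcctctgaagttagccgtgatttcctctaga
Chst10, chr1:38898161-38898410, - strand: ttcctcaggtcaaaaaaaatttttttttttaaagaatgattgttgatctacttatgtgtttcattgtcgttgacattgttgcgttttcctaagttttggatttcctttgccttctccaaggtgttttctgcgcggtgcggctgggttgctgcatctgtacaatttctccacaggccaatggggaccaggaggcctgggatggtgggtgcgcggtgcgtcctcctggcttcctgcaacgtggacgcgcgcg
The Il6 window holds an AP-1 match starting 249 bases and a kB match starting 44 bases before the start, the Mmp13 window an ISRE match at 146 and an AP-1 match at 35 bases, and the Edn1 window an ISRE match at 78 bases. The Chst10 window holds no match to these motifs or to the GAS motif of STAT proteins, TTCNNNGAA. The promoters shown do not stand for all named genes. Of the 15 named above both, 11 had a promoter in the table, and 7 of these held a match to any of these motifs. Cxcl9, Mab21l3 and Slamf1 were among those with none. Of the 15 named below both, 11 had a promoter and 1 held a match, Nfam1 with an AP-1 match. A match is a stretch of letters and not a measured binding site.

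Across the genes above all 6 libraries and higher than both agents by the test, 582 of 786 had a promoter in the table, with 796 windows. An ISRE core was found in 6.03% of these windows, against 2.83% of the 10828 windows of all tested genes and 1.67% of the 300 windows of the genes lower than both. For AP-1 the shares were 8.54%, 4.39% and 4.33%, for the kB motif 2.51%, 1.24% and 2.33%, and for GAS 7.41%, 6.06% and 4%. In the windows of the genes at least 2-fold over the nearer agent, 8.06% held an ISRE core, 10.8% an AP-1 match, 10.8% a GAS match and 2.69% a kB match. Over all 32851 windows of the table the shares were 2.98% for ISRE, 6.75% for AP-1, 7.02% for GAS and 1.21% for kB, so that AP-1 and GAS matches were less frequent in tested genes than in the whole table. Matches to different motifs can share bases and were counted separately.

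A sum rule asked whether a combined level passed what both agents would give if their levels were simply added. The lowest combined library exceeded the sum of the highest R848 and the highest IFN-α library in 297 genes (2.7%), a description with no test. An additive response on the CPM scale cannot pass this sum, whatever the untreated level. The ratio to the sum was 18.9 for Cxcl9, 18.5 for Nos2, 12.4 for Edn1, 11.9 for Il27 and 10.8 for Cxcl11, the 5 highest among named genes of at least 5 CPM. It was 8.67 for Il6, 1.59 for Isg15, 1.56 for Socs1, 1.52 for Tnf and 1.27 for Socs3, all above 1. For Il1b (0.92), Il12b (0.85), Tlr7 (0.76) and Ifnar1 (0.72) it was under 1. With library totals alone the number of genes above the sum was 133.

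Cytokine genes were called higher than the pooled single agents in 19 of 20 tested members, against 20.8% of all genes, and 11 of the 20 lay above all 6 libraries, against 11.8% of all genes. Their median contrast was 3.39, beside -0.01 over all genes tested. With the 6 single-agent libraries fitted as 1 group, whose spread then includes the difference between the agents, 6 of the 20 cytokine genes and 5 of the 20 chemokine genes were called higher. The counts above all 6 libraries, 11 and 10, use no fit, so this change could not move them. Tnf, a central inflammatory cytokine, was at 5204, 4249.6 and 4493 CPM under R848, 77, 73.9 and 99.9 CPM under IFN-α and 9619, 8037 and 8669 CPM under both agents. All combined libraries lay above all R848 libraries, but the step over R848 was 1.89-fold (adjusted p against both 1.39e-08), small beside that of Il6. Il1a, encoding IL-1α, had a similar step of 1.83-fold over R848. Csf3, the granulocyte growth factor G-CSF, was at 31.5, 29.4 and 32 CPM under R848, 0.774, 0 and 0 CPM under IFN-α and 130.0, 121 and 131 CPM under both agents, a 4.11-fold step over R848. Its 2 counts over the IFN-α libraries give a ratio of 545 to IFN-α (95% counting interval 150 to 4503).

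In contrast to these, Il1b and Il12b had high contrasts without lying above R848. Il1b, encoding IL-1β, was at 5404, 5515 and 6147 CPM under R848, 6.19, 6.16 and 2.54 CPM under IFN-α and 6351, 5668 and 6257 CPM under both agents. The R848 and combined libraries overlapped, and the test against both did not pass (adjusted p = 0.799). Il12b, encoding the p40 subunit of IL-12, was at 225, 239 and 280.2 CPM under R848, no counts in any library under IFN-α and 258, 246 and 239 CPM under both agents. Again R848 and combined libraries overlapped, and with no count with IFN-α the combined group was at least 695-fold higher than IFN-α, taking 3 counts over that group as the floor. The high contrasts of this pair therefore came from the IFN-α side.

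Of 20 chemokine genes, the contrast called 15 higher and 1 lower, with 10 above all 6 libraries and a median contrast of 3.08. Ccl12, a monocyte chemokine, was at 7.81, 10.1 and 10.4 CPM under R848, 98.3, 86.2 and 98.6 CPM under IFN-α and 823, 702 and 839.5 CPM under both agents, and Ccl5, which attracts T cells and monocytes, at 329.9, 204 and 246 CPM under R848, 21.7, 16.7 and 17.5 CPM under IFN-α and 1820.5, 1630.3 and 1528 CPM under both agents. The higher single agent was IFN-α for Ccl12 and R848 for Ccl5, and the combined level passed it 8.35-fold and 6.38-fold. Cxcl2, which attracts neutrophils, went the other way relative to R848, at 3900.1, 3784 and 4102 CPM under R848, 1.55, 1.81 and 2.23 CPM under IFN-α and 1775, 1540.5 and 1619 CPM under both agents. Its combined libraries lay below all R848 libraries and far above IFN-α, inside the single-agent range, and its contrast of 4.24 ± 0.097 turned to -0.26 when the 6 single-agent libraries were fitted as 1 group (adjusted p = 0.955).

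Interferon-stimulated genes were higher in 35 of 35 tested members, with a median contrast of 2.67. With the single-agent libraries fitted as 1 group, edgeR's quasi-likelihood test called 0 of the 35, and 0 had an unadjusted p under 0.05. Of the 35, 23 lay above all 6 libraries and 20 passed the test against both agents. This number depended on the scaling, with 21 above under upper-quartile factors and 9 under library totals alone. Rsad2, the antiviral protein viperin, was at 34.4, 34.8 and 28.1 CPM under R848, 3522, 3258 and 3645 CPM under IFN-α and 6463, 6063 and 5820.3 CPM under both agents, and Isg15, a ubiquitin-like modifier, at 22.6, 22.5 and 21.6 CPM under R848, 634, 599 and 639 CPM under IFN-α and 1049.9, 1100.4 and 1131 CPM under both agents. For both genes IFN-α was the higher agent by far, and the combined level passed it 1.76-fold and 1.75-fold (adjusted p against both 4.59e-09 and 3.65e-09). The fold over IFN-α was 1.54 for Mx1, a GTPase that blocks viruses, 1.53 for Cmpk2, a nucleotide kinase, and 1.38 for Ifit2, which binds viral RNA. Cmpk2 and Ifit2 lay inside the single-agent range with library totals alone. The contrast ± SE was 4.19 ± 0.072 for Rsad2 and 3.21 ± 0.072 for Isg15.

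Antigen presentation genes were mostly higher. Of 20 MHC class I presentation genes, 17 were higher and 12 lay above all 6 libraries (median contrast 0.99), against 10 under upper-quartile factors and 7 under library totals alone. With the single agents fitted as 1 group, 4 of these 20 genes and 1 of the 9 costimulation and class II genes were called higher. Tap1, a subunit of the peptide transporter, was at 37.6, 29.7 and 25.5 CPM under R848, 403, 429 and 375 CPM under IFN-α and 667, 605 and 671 CPM under both agents, 1.61-fold over IFN-α, and its partner Tap2 was 1.6-fold over IFN-α. Tapbp, the chaperone tapasin, passed the nearer agent 1.72-fold and the class I transactivator Nlrc5 1.34-fold, the latter inside the range with library totals alone. Of 9 costimulation and class II genes, 8 were higher and 5 above all 6 libraries (median 1.60). Cd40, a costimulatory receptor, was at 359, 278 and 329 CPM under R848, 88.7, 86.2 and 91.6 CPM under IFN-α and 1592, 1398 and 1514 CPM under both agents, higher with R848 than with IFN-α and 4.66-fold over R848 with both. Cd274, encoding the inhibitory ligand PD-L1, had IFN-α as the higher agent and was 1.64-fold over it, and Vcam1, an adhesion molecule, was 2.11-fold over R848. Cd86 was 1.3-fold over IFN-α and inside the range with library totals alone.

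**Figure D3:**
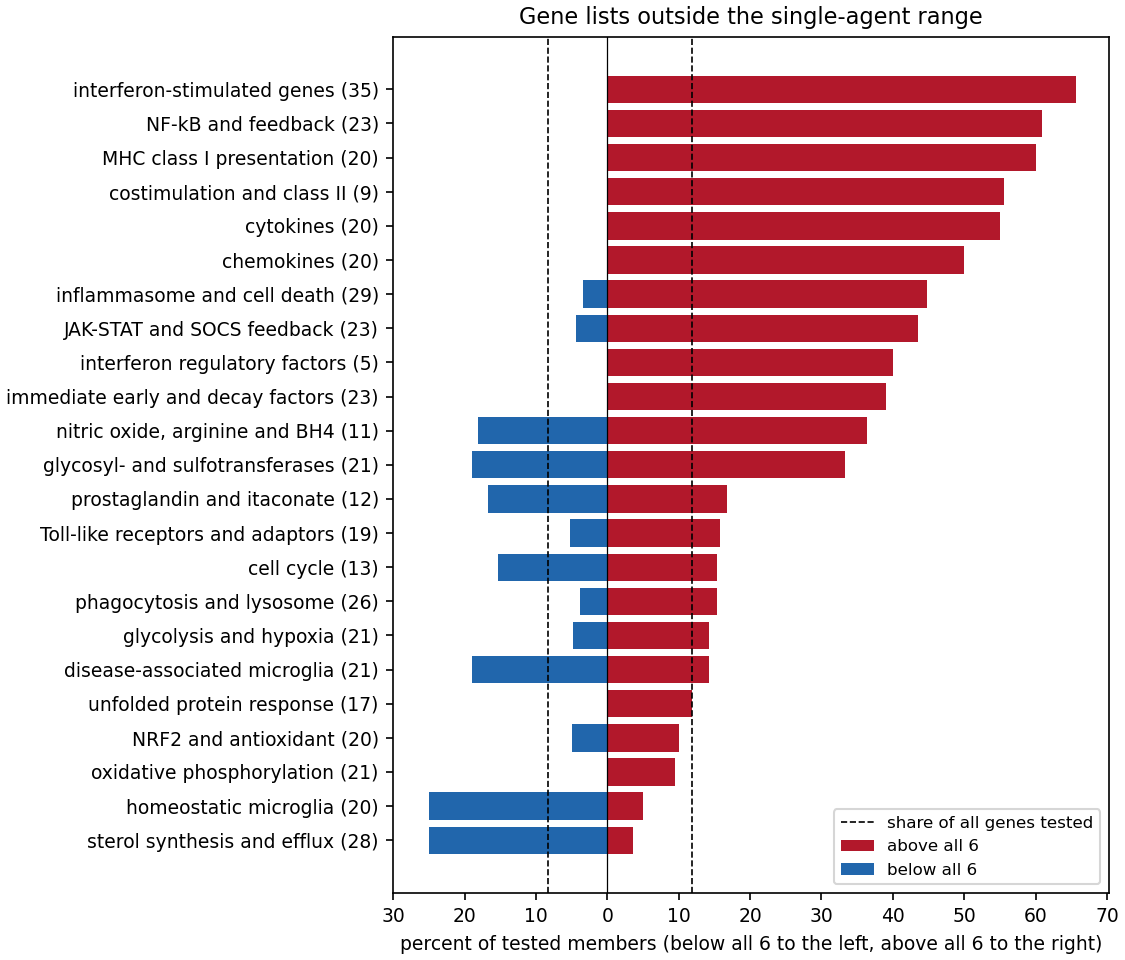
Percent of the tested members of each gene list that lay above (right, red) or below (left, blue) all 6 single-agent libraries, with the number of tested members in brackets and dashed lines at the shares over all genes tested, 11.8% above and 8.34% below. Bars reach 65.7% above for interferon-stimulated genes and 25% below for the homeostatic microglia and sterol lists.

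NF-κB pathway and feedback genes were higher in 23 of 23, with 14 above all 6 libraries (11 with upper-quartile factors, 7 with library totals alone) and a median contrast of 1.42. With the single agents fitted as 1 group, 3 of the 23 were called higher. Tnfaip3, the feedback inhibitor A20, was at 976, 831 and 878 CPM under R848, 75.5, 69.5 and 70.3 CPM under IFN-α and 1556, 1366 and 1530.4 CPM under both agents, and the adaptor Traf1 and the inhibitor Nfkbie, or IκBε, had steps of 1.73-fold and 1.86-fold over R848. All combined Tnfaip3 libraries lay above R848, by 1.66-fold, with IFN-α far below. Nfkbiz, a nuclear regulator of secondary response genes, lay above all 6 libraries by a narrow step of 1.15-fold that did not pass the test against both (adjusted p = 0.118), and lay inside the range with both other scalings.

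In the JAK-STAT and SOCS feedback list 12 of 23 members were higher and 2 lower (median 0.38), beside 20.8% and 14.1% of all genes, with 10 above (43.5%) and 1 below (4.35%) all 6 libraries. With library totals alone 7 were higher and 5 lower, 4 lay above and 3 below, and the median was 0.03, and with the single agents as 1 group 7 were called higher. Socs1, an inhibitor of JAK kinases, was at 18.2, 11.1 and 13.9 CPM under R848, 32.5, 23.9 and 33.4 CPM under IFN-α and 85.2, 89 and 80.4 CPM under both agents, 2.82-fold over IFN-α. Socs3, which restrains signalling of the IL-6 receptor, was at 149, 113 and 113 CPM under R848, 6.19, 6.88 and 6.68 CPM under IFN-α and 227, 199 and 221 CPM under both agents, 1.72-fold over R848. This pair thus differed in the higher single agent, and both rose above it with the combination (adjusted p against both 5.71e-09 and 1.82e-06). Jak2 and Stat3 were 2.28-fold and 1.46-fold over the nearer agent. Of 5 interferon regulatory factors tested, 4 were higher (2 with the single agents as 1 group) and 2 above all 6 libraries. Those were Irf1, at 126, 115 and 118 CPM under R848, 318, 308 and 351 CPM under IFN-α and 931, 849.9 and 824 CPM under both agents, and Irf8, a myeloid lineage factor, 2.71-fold over IFN-α. Irf1 stood 2.66-fold over IFN-α with no overlap between any groups.

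The receptors of both agents were compared next. Tlr7, through which R848 acts, was at 98.7, 128 and 113 CPM under R848, 595, 602 and 654 CPM under IFN-α and 644, 596 and 632 CPM under both agents. IFN-α and combined libraries overlapped, so that the gene lay inside the range (adjusted p against both = 1). Ifnar1, a chain of the IFN-α receptor, was at 337, 342 and 322 CPM under R848, 133, 151 and 143 CPM under IFN-α and 419.8, 354 and 359 CPM under both agents, above all 6 libraries by a step of 1.13-fold over R848 that did not pass the test against both (adjusted p = 0.284) and was inside the range with both other scalings. Of 19 Toll-like receptor and adaptor genes, 8 were higher and 3 lower, with 3 above and 1 below all 6 libraries, a share above of 15.8% beside 11.8% over all genes. The adaptor Myd88 was at 115, 106 and 113 CPM under R848, 149, 159 and 141 CPM under IFN-α and 359.7, 337 and 348 CPM under both agents, 2.33-fold over IFN-α and clear of both single agents. Tlr3 and Tlr6 were 1.31-fold and 1.5-fold over the nearer agent, both inside the range with library totals alone, where Tlr6 also lost its call (adjusted p = 0.139), and Tlr13, a receptor for bacterial ribosomal RNA, was 1.28-fold below it. The list's median of 0.17 became -0.18 with library totals alone, and with the single agents as 1 group edgeR called 2 members higher and 0 lower, with 2 lower at an unadjusted p under 0.05.

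Effector enzymes and lipid mediators made up several short lists. In the nitric oxide, arginine and tetrahydrobiopterin list 5 of 11 were higher (45.5%, beside 20.8% of all genes) and 2 lower (18.2%, beside 14.1%). Of these 11, 4 lay above (36.4%, beside 11.8%) and 2 below (18.2%, beside 8.34%) all 6 libraries. The median of 0.04 became -0.07 under upper-quartile factors and -0.32 under library totals alone. Beside Nos2, the arginine transporter gene Slc7a2 was at 973, 1009 and 1031 CPM under R848, 443, 429.9 and 421 CPM under IFN-α and 2313, 2168 and 2269 CPM under both agents and Gch1, which starts the synthesis of the Nos2 cofactor tetrahydrobiopterin, at 86.8, 75.3 and 72.3 CPM under R848, 73.6, 65.9 and 58.8 CPM under IFN-α and 212, 203 and 242 CPM under both agents. Both were 2.24-fold and 2.81-fold over R848. Odc1, the first enzyme of polyamine synthesis, was 1.37-fold over R848 and inside the range with library totals alone. Irg1, now called Acod1, the enzyme that makes itaconate, was at 3343, 3078 and 2939.9 CPM under R848, 620.3, 599.7 and 646 CPM under IFN-α and 8968, 7720.2 and 7943 CPM under both agents, 2.63-fold over R848 with no overlap. Of 12 prostaglandin and itaconate genes, in which Irg1 was not counted since its row has the older symbol, 3 were higher and 2 lower. These shares of 25% and 16.7% were near those of all genes, 20.8% and 14.1%. Above and below all 6 libraries lay 2 each (16.7%, beside 11.8% and 8.34% of all genes). Ptgs2, or COX-2, was 3.61-fold over R848, Pla2g4a, which releases arachidonic acid, 1.59-fold (inside the range with library totals alone), and Alox5ap lay below all 6 without passing the test against both (adjusted p = 0.276).

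For inflammasome and cell death genes, the contrast called 20 of 29 higher and 2 lower (median 0.93), and 13 lay above and 1 below all 6 libraries (11 above with upper-quartile factors, 6 with library totals alone). Fitted against the single agents as 1 group, 4 of the 29 were called higher. Nlrp3, an inflammasome sensor, was at 426, 327 and 348 CPM under R848, 9.68, 7.97 and 8.9 CPM under IFN-α and 631, 607 and 696 CPM under both agents, 1.76-fold over R848, and Daxx, a regulator of apoptosis, was 1.68-fold over IFN-α. Mlkl, the effector of necroptosis, was 1.58-fold over IFN-α and Bcl2a1a 1.27-fold over R848. Mlkl lay inside the range with library totals alone and Bcl2a1a with both other scalings, and Bcl2a1a has close copies in the mouse genome that make its counts uncertain. Of 23 immediate early and mRNA decay genes, 15 were higher and 1 lower, and 9 lay above all 6 libraries under all 3 scalings (median 0.96), and 6 of the 23 were called higher with the single agents as 1 group. Zfp36, the decay factor tristetraprolin, was at 62.5, 36.1 and 35.5 CPM under R848, 58.5, 73.2 and 69.3 CPM under IFN-α and 223, 179 and 192 CPM under both agents, 2.95-fold over IFN-α, and the phosphatase genes Dusp5, Dusp4 and Dusp2 were 2.78-fold, 1.87-fold and 1.63-fold over the nearer agent.

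Below both single agents, the leading genes included those of carbohydrate-modifying enzymes, a chemokine receptor and the myeloid transcription factor Cebpa. Under the same filters, the 15 genes furthest below the nearer single agent were Chst10, B3gnt8, Lhfpl2, Mrgpre, Cxcr4, Fam105a, B3gnt7, Nfam1, Cebpa, Kcnab2, Bin2, H6pd, Pag1, Lyl1 and Samd1, from 7.76-fold to 2.55-fold. Their steps were smaller than those of the 15 genes above both, whose smallest was 8.74-fold. Passing the test against both agents was again a condition of the choice. The largest adjusted p was 0.0291 (edgeR's quasi-likelihood test), for Samd1.

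Chst10 (chr1:38863867-38898177), a sulfotransferase that makes the HNK-1 carbohydrate, was at 31.5, 28.5 and 28.4 CPM under R848, 39.1, 50.3 and 39.8 CPM under IFN-α and 3.74, 1.73 and 4.83 CPM under both agents. Its R848 libraries lay below its IFN-α libraries, and all 3 combined libraries were far lower still. Its contrast was -3.23 ± 0.21 (adjusted p against both 4.63e-11, edgeR's quasi-likelihood test). Lhfpl2, a membrane protein gene, behaved alike at 109, 96.2 and 99.5 CPM under R848, 172, 175 and 144 CPM under IFN-α and 20.9, 24.2 and 26.9 CPM under both agents, 4.15-fold below R848. Cxcr4 (chr1:128588199-128592299), the receptor for the chemokine CXCL12, was at 37.9, 39.9 and 50.6 CPM under R848, 209.9, 203 and 214 CPM under IFN-α and 10.5, 9.07 and 13.3 CPM under both agents. Cebpa (chr7:35119293-35121928), a transcription factor of myeloid differentiation, was at 97.5, 73.7 and 69 CPM under R848, 517, 502 and 514 CPM under IFN-α and 23.9, 26.8 and 21.5 CPM under both agents. For this pair IFN-α was the higher agent and the combined level was below the lower one, R848, by 3.75-fold and 3.39-fold (contrasts -3.05 ± 0.14 and -3.10 ± 0.12).

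The others of the 15 had lower levels or smaller steps. B3gnt8 and B3gnt7, which extend polylactosamine chains, were 4.48-fold and 3.62-fold below the nearer agent, from mean levels of 5.49 and 7.65 CPM in the lower single-agent group. The steps were 3.8-fold for the receptor gene Mrgpre, 3.66-fold for Fam105a, 3.43-fold for Nfam1, an immune receptor with an activation motif, and 3.3-fold for Kcnab2, a potassium channel subunit. They were 3.16-fold for Bin2, a membrane-shaping protein of leukocytes, 2.89-fold for H6pd, which makes NADPH in the endoplasmic reticulum, 2.65-fold for the Csk-binding adaptor Pag1 and 2.6-fold for the haematopoietic transcription factor Lyl1.

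**Figure D4:**
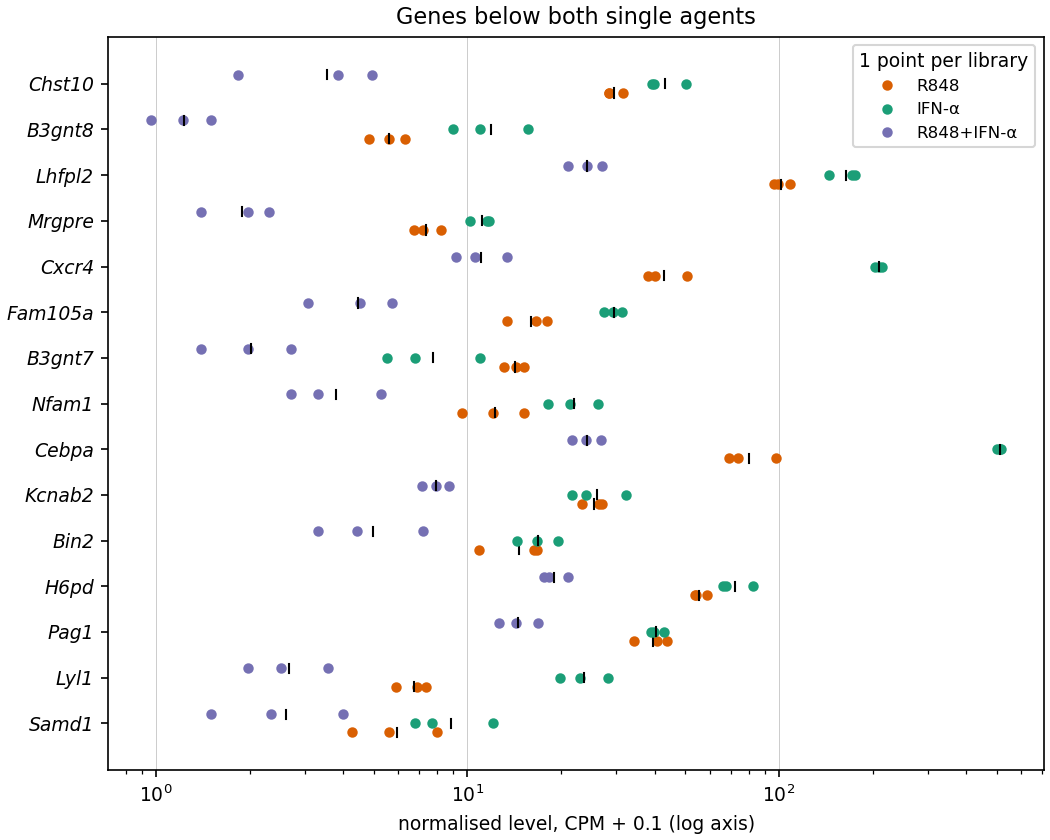
Level of the 15 genes furthest below both single agents in every library, as CPM plus 0.1 on a log axis (x axis), 1 row per gene and 1 point per library, with a tick at the mean of each group of 3. In each row the 3 combined points lie to the left of all 6 single-agent points, for Chst10 at 1.73 to 4.83 CPM against 28.4 CPM or more, and IFN-α is clearly the higher agent for Cxcr4 and Cebpa.

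In the list of glycosyl- and sulfotransferases 10 of 21 members were higher (47.6%, beside 20.8% of all genes) and 7 lower (33.3%, beside 14.1%), with 7 above (33.3%, beside 11.8%) and 4 below (19%, beside 8.34%) all 6 libraries. With library totals alone 2 lay above and 6 below, and with the single agents as 1 group 2 were called higher and 3 lower. St3gal5, which makes the ganglioside GM3, was at 61.9, 63.9 and 63.4 CPM under R848, 26.3, 28.2 and 25.8 CPM under IFN-α and 128, 117 and 123 CPM under both agents, 1.95-fold over R848, so that members of this list moved both ways.

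The homeostatic microglia list had 9 lower (45%, beside 14.1% of all genes) and 4 higher (20%, beside 20.8%) members among 20 tested (median -0.14). Below all 6 libraries lay 5 (25%, beside 8.34% over all genes) and above them 1 (5%, beside 11.8%). With the single agents as 1 group 2 were called lower. Tgfbr1, the kinase receptor for TGF-β, was at 308, 454 and 405 CPM under R848, 303, 302 and 304 CPM under IFN-α and 167, 165 and 173 CPM under both agents. The combined libraries were the lowest of the 9, 1.8-fold below IFN-α. Tmem119, a surface marker of resident microglia, was sparse, with 5 counts over the combined libraries, and Selplg lay below all 6 without passing the test against both (adjusted p = 0.199). Cd33 went the other way and was 1.42-fold over R848. Of 10 microglia markers, 2 were higher (20%, beside 20.8% of all genes) and 3 lower (30%, beside 14.1%), with a median of -0.01. Above all 6 libraries lay 1 (10%, beside 11.8%) and below them 2 (20%, beside 8.34%), few genes near these shares on the upper side. Csf1r and Tyrobp lay below, 1.51-fold and 1.3-fold under the nearer agent, and Fcer1g lay above with a contrast of 0.35 ± 0.070, but inside the range with both other scalings. With the single agents as 1 group edgeR called 0 of these 10, and 0 higher and 2 lower had an unadjusted p under 0.05. Among 21 disease-associated microglia genes, 7 were higher (33.3%) and 4 lower (19%), with 3 above (14.3%) and 4 below (19%) all 6 libraries. With library totals alone 3 were higher and 12 lower, and with the single agents as 1 group edgeR called 1 higher and 0 lower, with 3 lower at an unadjusted p under 0.05. Csf1, a growth factor for microglia, was 1.96-fold over the nearer agent and Igf1 1.32-fold below it. Cst7 and Axl were 1.48-fold and 1.24-fold over IFN-α and lay inside the range with library totals alone.

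In the sterol synthesis and efflux list, 16 of 28 members were lower and 1 was higher (median -0.42), with 7 below and 1 above all 6 libraries, and 2 lower than both by the test. The number below was 8 under upper-quartile factors and 16 under library totals alone, and with the single agents as 1 group 1 member was called lower. Abca1, a cholesterol exporter, was at 705, 761 and 713 CPM under R848, 787, 776 and 754 CPM under IFN-α and 549, 466 and 523 CPM under both agents, 1.42-fold below R848. Ch25h, which makes 25-hydroxycholesterol, was the member that was higher, at 683, 678 and 716 CPM under R848, 135, 125 and 164 CPM under IFN-α and 2297, 2115 and 2433 CPM under both agents, 3.3-fold over R848. Sqle and Lss, enzymes of the late steps of sterol synthesis, lay below all 6 libraries without passing the test against both (adjusted p = 0.253 and 0.404), and the contrast of Lss was not called without combined replicate 1 (adjusted p = 0.0722).

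In the glycolysis, phagocytosis and NRF2 lists, the shares called in each direction exceeded the 20.8% and 14.1% of all genes, and the shares above all 6 libraries were between 10% and 15.4%, beside 11.8%. Their balance depended on the scaling, since with library totals alone 4 were higher and 13 lower in the first, 5 and 13 in the second and 5 and 9 in the third. With the single agents as 1 group, edgeR called 2 members of each higher and 0 lower, and 1, 1 and 2 were lower at an unadjusted p under 0.05. The glycolysis and hypoxia list held 8 higher (38.1%) and 7 lower (33.3%) members of 21, with 3 above and 1 below, among them the hexokinase Hk3 (1.97-fold over IFN-α), the phosphofructokinase Pfkp (2.46-fold over the nearer agent) and Hk1 (1.75-fold), with Pkm 1.19-fold below the nearer agent. Phagocytosis and lysosome genes gave 10 higher (38.5%) and 5 lower (19.2%) of 26, with 4 above and 1 below. Complement C3 was at 397, 377 and 365 CPM under R848, 253, 240.5 and 189 CPM under IFN-α and 1520.2, 1539.6 and 1441 CPM under both agents, 3.95-fold over R848, and the scavenger receptor gene Msr1 was 2.25-fold over R848. The Fc receptor gene Fcgr4 and the protease gene Ctsc were 1.25-fold and 1.29-fold over IFN-α, inside the range with library totals alone. NRF2 and antioxidant genes gave 7 higher (35%) and 6 lower (30%) of 20, with 2 above, Prdx1 (1.47-fold over R848) and Txn1 (1.4-fold, inside with library totals alone), and 1 below, Tkt (adjusted p against both = 0.109). Cell cycle genes gave 3 higher (23.1%) and 2 lower (15.4%) of 13, near the shares of all genes. Above and below all 6 libraries lay 2 each (15.4%, beside 11.8% and 8.34%). The inhibitor Cdkn1a and the cyclin Ccnd2 lay above, 2.88-fold and 1.97-fold over IFN-α, and the cyclin Ccna2 and the kinase Cdk1 lay below, with contrasts of -1.24 ± 0.30 and -0.87 ± 0.26 (adjusted p against both 0.043 and 0.094). Of 21 oxidative phosphorylation genes edgeR called 1 higher and 0 lower, DESeq2 gave the same numbers, 2 had an unadjusted p under 0.05 in each direction, and 16 were lower with library totals alone. Unfolded protein response genes gave 3 higher and 3 lower of 17 (17.6% each), near the 20.8% and 14.1% of all genes. With the single agents as 1 group edgeR called 1 of these 17 higher and 0 lower, with 1 lower at an unadjusted p under 0.05.

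To place the combined level between the agents, genes at least 4-fold apart between R848 and IFN-α were taken, and each was given a position on the log2 scale from 0 at the lower agent to 1 at the higher agent. Of 253 such genes higher with R848, 218 lay nearer the R848 level, with a median position of 0.88 and quartiles of 0.65 and 1.10. Of 402 genes higher with IFN-α, 322 lay nearer the IFN-α level, with a median of 0.97 and quartiles of 0.65 and 1.09. Above all 6 libraries lay 56 of the 253 (22.1%) and 123 of the 402 (30.6%), beside 11.8% of all genes, and 47 and 89 of these groups of genes were higher than both by the test. Below all 6 libraries lay 0 of the 253 and 12 of the 402 (2.99%), beside 8.34% of all genes, with Cxcr4 and Cebpa among them. The position uses the same libraries as the choice of genes and has no test.

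Genes near the lower agent were fewer, 35 of 253 and 80 of 402. Gcnt1, a glycosyltransferase that starts branched O-glycans, was at 4.05, 6.96 and 4.15 CPM under R848, 114, 111 and 112 CPM under IFN-α and 5.98, 8.21 and 8.65 CPM under both agents. The R848 and combined libraries overlapped and IFN-α stood alone, and the contrast was -1.61 ± 0.20. Rassf3 was at 9.26, 6.01 and 8.89 CPM under R848, 48, 45.3 and 44.5 CPM under IFN-α and 4.48, 6.48 and 5.03 CPM under both agents. Its combined mean, like that of Arhgap19, was under the R848 mean, whereas that of Gcnt1 was over it, and for each of them the R848 and combined libraries overlapped. Rassf3 and Arhgap19 had contrasts of -1.87 ± 0.21 and -2.45 ± 0.24, and Rassf3 lay below all 6 with both other scalings. Nckap5l was inside the range with a contrast of -1.58 ± 0.43 from 2 single-agent groups of similar level. On the R848 side, chosen after their values were seen, Hvcn1, a proton channel gene, was at 455, 419 and 389 CPM under R848, 67, 55.8 and 57.9 CPM under IFN-α and 85.2, 101 and 90.5 CPM under both agents, and Dtx4, a ubiquitin ligase gene, at 234, 225 and 217 CPM under R848, 39.9, 36.2 and 34.3 CPM under IFN-α and 50.4, 45.3 and 52.1 CPM under both agents. For both the combined libraries lay just above IFN-α and far below R848 (contrasts -0.79 ± 0.093 and -0.87 ± 0.099).

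**Figure D5:**
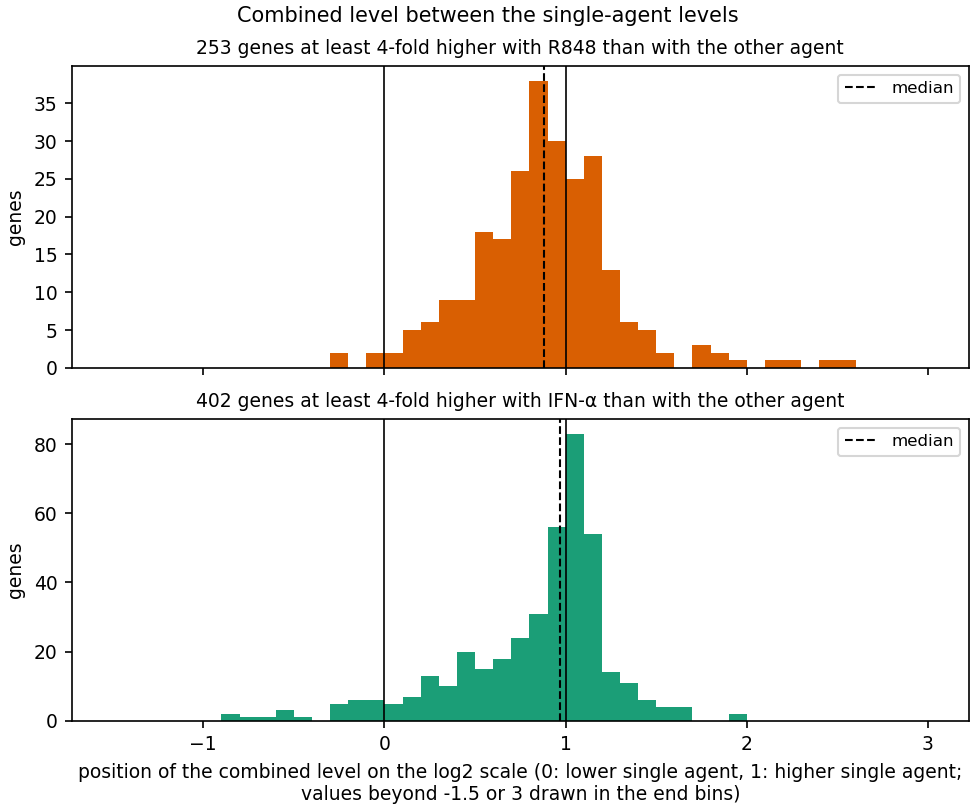
Number of genes (y axis) by the position of the combined level between the lower single agent (0) and the higher single agent (1) on the log2 scale (x axis), for 253 genes higher with R848 (top) and 402 genes higher with IFN-α (bottom), with dashed lines at the medians of 0.88 and 0.97. Most genes pile up near 1, and a tail reaches 0 and below, longer for the genes higher with IFN-α.

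Markers of other cell types in the preparation were also compared. Of 10 astrocyte markers tested, 5 were higher and 5 lay above all 6 libraries (2 with library totals alone). Aqp4, the astrocyte water channel, was at 353, 547 and 581 CPM under R848, 265, 297 and 278 CPM under IFN-α and 1049, 1205 and 891 CPM under both agents, 2.12-fold over R848, and Gfap at 924, 848.2 and 918 CPM under R848, 922, 675 and 652 CPM under IFN-α and 1213, 1838 and 1203 CPM under both agents, which did not pass the test against both (adjusted p = 0.0627) and lay inside the range with library totals alone. All 3 combined libraries were the highest of the 9 for both genes, with a wide spread among them. Slc1a3 and Aldoc were 1.61-fold and 1.52-fold over the nearer agent. Oligodendrocyte markers were higher in 1 and lower in 1 of 9 (11.1% each, beside 20.8% and 14.1% of all genes). They summed to 560 to 606 CPM in the combined group, 498 to 531 CPM with R848 and 642 to 757 CPM with IFN-α. Of 8 fibroblast and mural markers 3 were higher, or 1 with the single agents as 1 group, with sums of 221 to 361, 198 to 243 and 163 to 233 CPM in the same order, and Postn was 1.61-fold over R848 and inside the range with library totals alone. Of 3 endothelial markers tested 2 were higher, or 1 by that fit, with sums of 39.7 to 55.9, 17.4 to 21.1 and 51.2 to 66.6 CPM, Emcn listed at 0 in all libraries and Cdh5 1.94-fold over the nearer agent. Of 4 neuron markers (sums of 159 to 174, 137 to 152 and 142 to 176 CPM) and 3 other leukocyte markers tested, edgeR and DESeq2 called 0, and 1 of each list had an unadjusted p under 0.05, in the direction of a higher level. The genes Cd3g, Cd8a, Cd79a, Nkg7, Ncr1 and S100a9 had no count in any library.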

How the data were processed

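RNA was sequenced from 9 libraries in 3 groups of 3, named by the sample titles. The authors deposited whole-number read counts per gene, each gene having 3 values that ignore or follow the strand. According to the submitters' processing notes, the build was mm10 and the tools STAR 2.5.1, Trimmomatic 0.33, CASAVA 1.8.2 and DESeq2. For the annotation used in counting, a name is not given in sources used here. Genes with close copies can be undercounted. The libraries are directional, and forward-strand counts were under 2% of both strands, so the reverse-strand column was used. The 4 rows with no gene name were left out, among them read pairs in no gene, which were 39.3% to 44.4% of the total.

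Counts were analysed as deposited in R 4.3.3 with limma 3.58.1 and edgeR 4.0.16. Genes were kept by filterByExpr (minimum count 10, minimum total 15), which left 11002, and 1 model of group means with TMM factors and robust quasi-likelihood estimation was fitted to all 9 libraries, with a biological coefficient of variation of 0.0955. P-values were adjusted by Benjamini-Hochberg over all genes tested, with a threshold of 0.05. The test against both agents takes the larger of the p-values against R848 and against IFN-α where both changes have the same sign. The SE of a log2 value is its size divided by the square root of F and is approximate. Counting intervals (95%) are exact and cover counting error only.

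Per direction, the 15 named genes have the largest change against the nearer agent among genes passing this test outside the range, with at least 5 CPM (in the combined group, or in the lower single-agent group for lower genes), without predicted or clone names. Up to 4 members per list were named by the largest contrast among those called outside the range, as were the 5 highest ratios to the sum, the 4 highest and lowest contrasts inside the range and 12 preset genes. Genes and lists were chosen with earlier results of these data known, and no set test was run. Since the labels do not call replicates separate cultures, p-values reflect the spread of these libraries alone, possibly a technical one. Counts of all replicate pairs differed beyond sampling noise (chi-square per degree of freedom 1.92 to 6.27 without Rn45s), so each library counted as 1 sample. Gene positions and promoters are from RefSeq on GRCm38.p6, the assembly that mm10 names. Alternatives were DESeq2 1.42.0, other scalings, filters and strand columns, Rn45s left out, single agents as 1 group, other range rules, a replicate block and each library left out. A thinning of combined replicate 3 was chosen after seeing the data.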

Additional observations from a re-analysis of the deposited data

Results flagged for a closer look

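Forward-strand counts, a column that no comparison used, made up 1.22% of the counts of both strands on average in the combined group (1.09% to 1.34% over its 3 libraries), above the level that a count of 0 would allow. The share was 1.31% with IFN-α (1.15% to 1.5%) and 1.32% with R848 (1.29% to 1.37%), so the ranges of the groups overlapped.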

How the results depend on the processing

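With library totals alone 1218 genes were higher and 4918 lower, 423 lay above and 2822 below all 6 libraries, 301 were higher and 1783 lower than both by the test, and 133 lay above the sum. With upper-quartile factors 2475 were lower, 1455 lay below and 552 were lower than both. DESeq2 called 185 lower than both. With the 6 single-agent libraries as 1 group, whose spread then holds the difference between the agents, 490 were higher and 314 lower. A range rule on the combined mean gave 2021 above and 1896 below, and one with a margin of 1.5-fold 246 and 71. The low-count filters, unstranded counts, the omission of Rn45s and the thinning of combined replicate 3 (2211 higher, 1454 lower) left every count they gave within 1.5 times.

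With 1 library left out at a time, 2000 to 2511 genes were higher and 1070 to 1756 lower, 1372 to 1579 lay above and 1054 to 1283 below, 622 to 979 were higher and 173 to 374 lower than both, and 306 to 334 lay above the sum. With a replicate block, 2336 were higher, 1584 lower, 845 higher than both and 320 lower than both, and the ranges were the same. Deviations of libraries with the same number correlated at -0.10 to 0.06 over all genes tested. Counting noise of low genes enters these values, so they show no pairing but cannot exclude one. No block value moved by over 1.5 times.

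Of 2284 alternative contrasts of the 127 named genes, 2212 kept direction and side of the threshold, 58 lost the call with single agents as 1 group and 11 elsewhere, for Mbp, Cycs, Hspa5, Tlr6, Atf4, Cdk1 and Lss. The sign turned for Atf4 (-0.075) and Fcer1g (-0.0011) with library totals alone and for Cxcl2 (-0.26) with single agents as 1 group. Apart from the 2 causes built into an alternative (the added spread and the smaller number of libraries), the cause was not tested. Depth limits genes with few counts, such as Tmem119, Heatr9, Mab21l3 and Abi3.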

Other observations

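The 39 genes above all 6 libraries and at least 4-fold over the nearer single agent include the 15 named by size and members of the lists, and the following others were picked from them after their values were seen. Cd69, an early activation marker of leukocytes, had means of 239 CPM with R848 (SD 37.2, n = 3), 125 CPM with IFN-α (SD 6.04) and 1103 CPM with both (SD 109.6), 4.61-fold over R848. Ccrl2, a receptor that binds the chemoattractant chemerin, was at 253 ± 23.7, 277 ± 21.8 and 1388 ± 116 CPM, and Rapgef2, an activator of Rap GTPases, at 80.5 ± 8.41, 36.5 ± 8.63 and 517 ± 25.2 CPM, steps of 5.01-fold and 6.43-fold over the nearer agent. The transcription factor gene Creb5 was 4.65-fold over the nearer agent from about the same level with each, with means and SD of 6.28 ± 1.99 (R848) and 7.11 ± 1.74 CPM (IFN-α). Serpin genes of 1 cluster were among the 39, Serpina3f, Serpina3g and Serpina3h at 5.16-fold, 5.03-fold and 4.65-fold, as were Slfn4 (6.74-fold) and Ifi205 (5.00-fold), and all 5 belong to families with close copies, so that their counts are uncertain.

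In the other direction, 8 genes were at least 4-fold under the nearer agent and 12 genes were at least 4-fold higher with IFN-α than with R848 yet below all 6 libraries in the combined group. Abi3, a cytoskeletal regulator expressed in microglia, was in both sets, at 2.85 ± 1.67 CPM with R848, 33.0 ± 3.62 CPM with IFN-α and 0.403 ± 0.0292 CPM with both. At this combined level Abi3 had very few counts per library, so its small SD does not show a precise level and its fold is uncertain. The receptor gene Gpr157 was at 12 ± 2.10, 171.7 ± 11.6 and 7.35 ± 1.55 CPM, and Rassf2, a regulator of Ras signalling, at 22.4 ± 5.01, 92.3 ± 4.24 and 10.8 ± 1.46 CPM, with adjusted p against both of 0.0362 and 0.000243 (edgeR's quasi-likelihood test). On the R848 side, Sephs2, which makes selenophosphate for selenoproteins, was at 141 ± 9.02 CPM with R848, 28.2 ± 6.19 CPM with IFN-α and 27.5 ± 5.10 CPM with both, so that the combined libraries overlapped IFN-α.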
